A study of Mus musculus with 235 samples.

Results

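Oxidative phosphorylation genes were followed in 8 brain regions of mice given dexamethasone or vehicle, with the genes of nuclear DNA and those of mitochondrial DNA kept apart. Members were the genes of the count table whose symbols begin with Nduf, Cox4 to Cox8, Uqcr or Atp5, or are Sdha to Sdhd, Cyc1 or Cycs, or name a protein-coding gene of mitochondrial DNA, with a mean of at least 5 CPM (a gene's counts scaled to a library total of 1000000) over the 235 libraries. The rule found 94 genes of 27998, of which 87 were nuclear and 7 mitochondrial. A further 14 genes carried such a symbol but lay below that level, 8 of them nuclear and 6 mitochondrial. Just inside the limit stood Cox6b2 with a mean of 5.03 CPM, Cox6a2 with 5.55 CPM and Cox7a1 with 7.16 CPM, and just outside it stood Ndufs5 with 4.92 CPM.

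All animals were C57Bl/6 male mice aged 3 months. One arm of 15 mice received the synthetic glucocorticoid dexamethasone at 10 mg/kg into the peritoneum, the other arm of 15 mice received 0.9% saline by the same route, and tissue was taken 4 h later. Brains were perfused, and each region, labelled dCA1, vCA1, dDG, vDG, PFC, AMY, PVN or CER, was punched from coronal sections of every animal, so that a region and arm held 13 to 15 libraries and all regions came from the same 30 animals. RNA was counted by unique molecules at transcript 3' ends.

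Oxidative phosphorylation takes place in the inner mitochondrial membrane. Complex I (NADH dehydrogenase) and complex II (succinate dehydrogenase) pass electrons through complex III and cytochrome c to complex IV (cytochrome c oxidase), which hands them to oxygen, and ATP synthase uses the proton gradient that complexes I, III and IV build. Subunits of all but complex II come from both genomes, and neurons depend on this pathway for most of the ATP that ion pumping and synapses consume. The 87 nuclear members comprised 7 core subunits, 28 accessory subunits and 8 assembly factors of complex I, 4 subunits of complex II, 9 of complex III, cytochrome c (Cycs), 14 subunits of complex IV, 14 subunits of ATP synthase, and 1 each of Cox7a2l, a factor of respiratory supercomplexes, and Atp5s, a factor associated with ATP synthase.

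A library held 268538 to 1451422 counts (median 742957). The punches differed in their markers. The summed level of the 7 dentate granule cell markers in vehicle libraries was 571 to 1579 CPM in dCA1 and 176 to 1942 CPM in dDG, so the 2 regions overlapped over the whole dCA1 range, against 121 to 344 CPM in vCA1. The 6 choroid plexus markers summed to between 45.5 and 11831 CPM in dDG and to at most 113 CPM in CER. The 7 neuronal markers were present in every region, at 2872 CPM or more in each vehicle library. In punched tissue, fewer cells of a type and less RNA per cell cannot be told apart.

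Of the 13 protein-coding genes of mitochondrial DNA, 7 were counted abundantly and 6 hardly at all. The 7 members were mt-Nd1, mt-Nd2, mt-Nd4, mt-Nd5 and mt-Nd6 of complex I, mt-Cytb of complex III and mt-Co1 of complex IV. Summed over all libraries they held from 39848 counts for mt-Nd6 to 2862469 counts for mt-Nd4. The other 6 held 150 counts for mt-Nd3, 115 for mt-Atp6, 39 for mt-Co3, 26 for mt-Co2, 9 for mt-Nd4l and 3 for mt-Atp8. No complex IV subunit other than mt-Co1, and no ATP synthase subunit of mitochondrial DNA, could therefore be compared between groups.

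These 6 genes lie side by side, between MT:7013 and MT:10173. A run of unprocessed pseudogenes on chromosome 1, from chr1:24612407 to chr1:24616197 on the minus strand (GRCm38, GENCODE M21), copies this part of mitochondrial DNA. The last 150 bases of the GENCODE transcript were compared with all other transcripts of that annotation. Of the 6 genes with few counts, 5 had a pseudogene there that matched at 100% identity over at least 140 bases, all but mt-Atp8. Of the 7 members, mt-Co1 (Gm29216, 100% identity) and mt-Nd2 (Gm13339 on chromosome 2, 98% identity) had such a copy and 5 had none. None of the 7 pseudogenes is a row of the count table. The ends of mt-Co3 and mt-Nd3 are shown beside those of their copies, since no base of the stretches shown differs between gene and copy, and the end of mt-Cytb is shown as that of an abundant gene for which no copy was found. All are written 5′ to 3′ as GENCODE M21 gives the transcripts, and each pseudogene's model stops 1 or 3 bases short of its gene's.
mt-Co3 (39 counts): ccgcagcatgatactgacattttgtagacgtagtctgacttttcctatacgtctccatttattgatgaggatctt
Gm28437: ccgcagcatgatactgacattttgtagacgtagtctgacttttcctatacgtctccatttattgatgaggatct
mt-Nd3 (150 counts): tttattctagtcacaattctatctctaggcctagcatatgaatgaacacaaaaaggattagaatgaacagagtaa
Gm28438: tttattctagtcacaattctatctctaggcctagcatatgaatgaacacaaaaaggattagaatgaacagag
mt-Cytb (2516572 counts): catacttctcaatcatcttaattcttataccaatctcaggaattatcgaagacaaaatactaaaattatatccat

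Reads were 75 bases long, so a read that lies wholly within a stretch identical to its copy has more than 1 equally good position. How the authors' counting treated such reads is not given in the sources used here, and its part in the low counts was not tested. Among nuclear genes the same comparison found a matching copy for Atp5g2, an ATP synthase subunit c gene (378 counts, Gm10231), and Ndufs5, a complex I subunit (849 counts, BC002163), both below the level. It also found one for 3 nuclear members, Atp5h, Atp5o and Cox7c. The values of these 3 and of mt-Co1 and mt-Nd2 are uncertain to that extent.

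**Figure D1:**
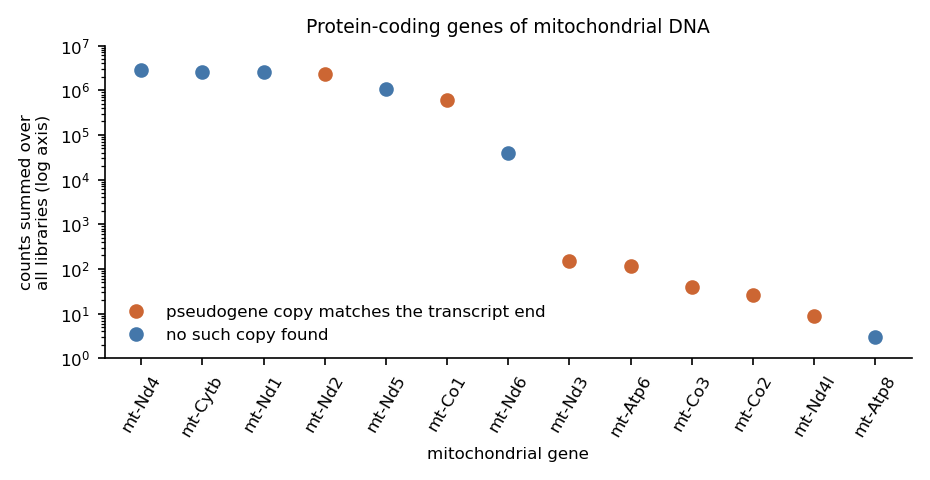
Counts of the 13 protein-coding genes of mitochondrial DNA, summed over 235 libraries, on a log axis. Orange points are genes whose transcript end has a matching pseudogene copy and blue points genes without one. The 6 genes on the right hold at most 150 counts each and the 7 on the left at least 39848.

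Dexamethasone changed no oxidative phosphorylation member in any region past the threshold, an adjusted p under 0.05 from edgeR's quasi-likelihood test over all genes. For the mitochondrial members, 0 of 56 tests passed (7 genes in 8 regions). For the nuclear members, 0 of 663 passed, and with the replicate number as a block 1 did, Sdhd in PVN. Of the 87 nuclear members 81 reached the count filter in all 8 regions, Ndufaf2 and Ndufaf6 in 6, Ndufaf1 in 2, Cox7a1 in 1, and Cox6a2 and Cox6b2 in 0. Over all genes the same fits called 6.18% in CER and 6.14% in PFC, 5.63% in PVN and 5.62% in AMY, 5.45% in vCA1 and 4.68% in dCA1, and 3.93% in vDG and 3.7% in dDG. Before adjustment, 10 of the 663 nuclear tests and 0 of the 56 mitochondrial tests had a p under 0.05, which is 1.51% of the nuclear tests, against 13.8% over all genes. With DESeq2, 12 and 1 had an unadjusted p under 0.05, and 0 and 0 passed after adjustment.

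The intervals give an approximate limit on how large a missed change could be. For some members with low counts they are narrower than the p of the test implies. The 95% interval of the log2 fold change lay wholly within -0.5 and 0.5 for 638 of the 663 nuclear tests and 55 of the 56 mitochondrial tests. Its median width to either side ran from 0.17 to 0.21 for nuclear members and from 0.18 to 0.29 for mitochondrial members over the regions. The median log2 fold change of the nuclear members ran from -0.04 in vCA1 to 0.04 in dCA1, beside -0.02 to 0.00 for all genes tested. That of the mitochondrial members ran from -0.15 in dCA1 and -0.11 in vDG to 0.04 in AMY, and 42 of their 56 fold changes were negative, among them all 7 in CER, PFC, dCA1 and vDG. The 7 share their libraries in a region, so these signs are not independent. Changes smaller than these intervals were not detectable with this depth, spread between libraries and number of animals.

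Among mitochondrial members the smallest adjusted p was 0.436, for mt-Co1 in PFC. This gene encodes the catalytic subunit of complex IV (ENSMUSG00000064351, MT:5328-6872). Its level in PFC ran from 3868 to 5118 CPM in vehicle (median 4232) and from 3351 to 5184 CPM after dexamethasone (median 4121), a log2 fold change of -0.11 ± 0.06 (SE, 15 and 14 libraries). The vehicle range lay inside the dexamethasone range. The largest fitted difference was that of mt-Nd4, a proton-pumping subunit of complex I, in dCA1, at -0.23 ± 0.14 (adjusted p = 0.537), where vehicle libraries ran from 9957 to 34981 CPM (median 19177) and dexamethasone libraries from 12121 to 23140 CPM (median 15810). All dexamethasone libraries lay inside the vehicle range.

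As a share of a library's counts, the 7 mitochondrial members held between 3.85% and 11.96% (median 6.96%) and the 87 nuclear members between 0.975% and 1.97% (median 1.45%). The difference in the mean share, dexamethasone minus vehicle, lay between -0.636 percentage points in dCA1 and 0.109 in AMY for the mitochondrial members, with an SD within groups of 0.945 to 1.76 points. For the nuclear members it lay between -0.044 in PFC and 0.066 in dCA1, with an SD of 0.0805 to 0.197 points. All of these differences were smaller than the spread within either arm.

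**Figure D2:**
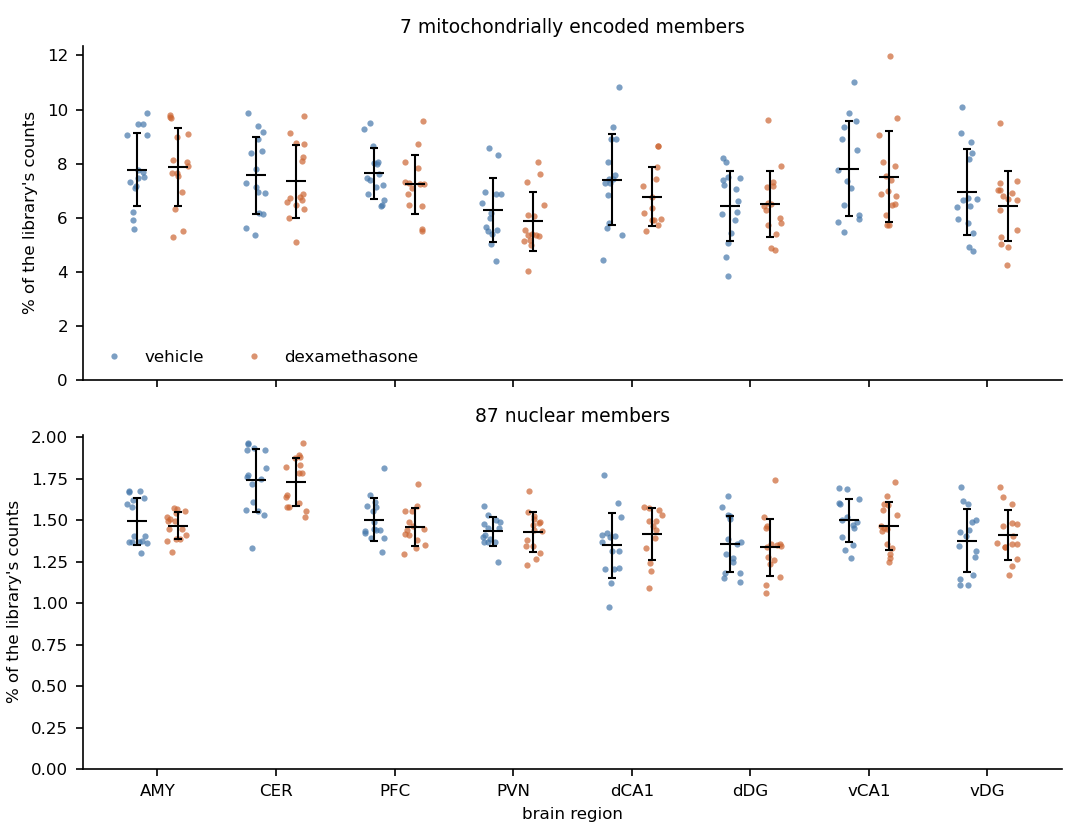
Share of each library's counts held by the 7 mitochondrial members (upper panel) and the 87 nuclear members (lower panel), by region. Points are libraries of vehicle (blue) and dexamethasone (orange) animals, and bars are the mean and SD. The arms overlap in every region, and CER has the highest nuclear share, with a mean of 1.74% in vehicle.

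Nuclear members with the smallest unadjusted p are given as values. The smallest was that of Atp5s in vDG, which is the ATP synthase associated factor (log2 fold change -0.35 ± 0.13, adjusted p = 0.232). Its level was 13.2 to 26.8 CPM in vehicle (median 19.9) and 10.0 to 20.1 CPM after dexamethasone (median 15.5). The fold changes of Atp5s in the other regions ran from -0.36 in PVN to 0.26 in CER. Next came Ndufaf6, an assembly factor of complex I, in AMY, at 0.36 ± 0.14 (adjusted p = 0.200). That was the highest fold change, and the smallest adjusted p, of a nuclear member. Sdhd, a membrane anchor of complex II, had the largest fitted difference, -0.56 ± 0.24 in PVN (adjusted p = 0.240). Its level there was 15.4 to 52.8 CPM in vehicle (median 23.3) and 0 to 40.4 CPM after dexamethasone (median 16.8), and the arms overlapped. With the replicate number as a block, Sdhd in PVN passed the threshold at -0.72 ± 0.21 (adjusted p = 0.0308).

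Ndufaf8, an assembly factor of complex I, had a log2 fold change of -0.20 in vCA1 (adjusted p = 0.386). It passed the threshold, at -0.32 ± 0.09 (adjusted p = 0.0265), when the libraries absent from the authors' variance-stabilised tables were left out. With all libraries kept, Ndufaf8 ran from 42.7 to 59.1 CPM in vehicle (median 49.5) and from 30.7 to 75.3 CPM after dexamethasone (median 43.1). In that full set the dexamethasone group enclosed the vehicle group. Ndufaf6, Sdhd and Ndufaf8 were singled out after their values were seen.

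Whether the response differed among the 8 regions was tested with an interaction term over all regions. None of the 86 nuclear and 7 mitochondrial members tested passed (smallest unadjusted p 0.17 and 0.774, and 0 and 0 with an unadjusted p under 0.05), against 1.17% of all genes. The 3 members with the smallest p were Cox6a2, the muscle-type form of subunit 6a, then Atp5s, then Cox4i1, the common form of subunit 4. Cox4i1 differed by 0.20 ± 0.11 in dCA1 and 0.21 ± 0.13 in vDG, and by -0.15 ± 0.11 in vCA1, and the smallest adjusted p of its 8 tests was 0.482.

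The drug response itself was plain in the same libraries. Fkbp5, a glucocorticoid-induced co-chaperone of the receptor, rose in 8 of 8 regions by 1.65 to 2.79 on the log2 scale, and 94 of 104 tests of 13 glucocorticoid response genes were higher and 0 lower. Other cell types' markers moved too. The vessel genes Kdr, Flt1 and Slco1a4 and the microglial gene P2ry12 fell in 8 of 8 regions, while 0 of 56 tests of the general neuronal markers passed. Of the dentate granule markers 6 of 38 tests passed (15.8%). In vCA1 Dsp (1.95 ± 0.40) and Npnt (1.22 ± 0.31) were higher, where the summed level of the list was 121 to 344 CPM in vehicle (median 210) and 132 to 856 CPM after dexamethasone (median 323). Prox1 was lower in AMY, CER and PVN, and Plk5 in dCA1. The choroid plexus marker Ttr had a fitted difference of -2.27 ± 0.56 in vCA1, where vehicle libraries ran from 16.0 to 1407 CPM (median 38.0) and dexamethasone libraries from 11.3 to 91.7 CPM (median 26.1). The ranges overlapped, and the medians lay much closer than the fitted difference. The part of these shifts in the members' values was not tested.

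**Figure D3:**
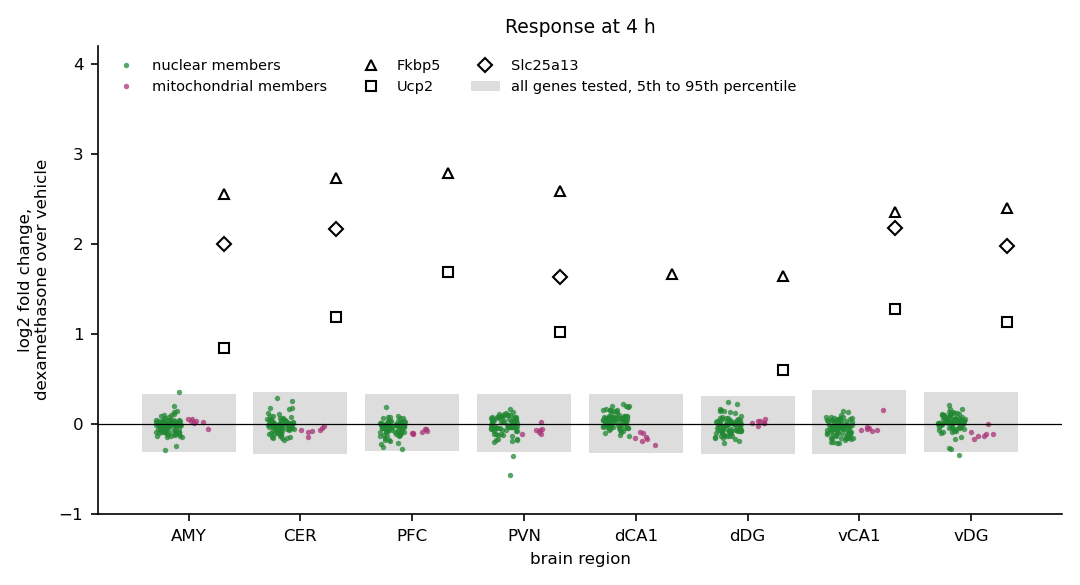
Log2 fold change of dexamethasone over vehicle at 4 h in each region, for nuclear (green) and mitochondrial (purple) members. Grey bars span the 5th to 95th percentile of all genes tested, and open symbols show Fkbp5, Ucp2 and Slc25a13 where tested. Members lie around 0, between -0.56 and 0.36, while Fkbp5 lies between 1.65 and 2.79.

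Of the genes around the respiratory chain, from lists of carriers, enzymes and regulators, 0% to 9.28% of a list's tests passed, against 3.7% to 6.18% of all genes by region. Slc25a13, the mitochondrial aspartate-glutamate carrier citrin, rose in all 5 regions where it was tested, by 1.63 to 2.17 on the log2 scale. In CER it ran from 4.02 to 40.6 CPM in vehicle and from 63.9 to 136 CPM after dexamethasone, with no overlap. Ucp2, an inner membrane carrier of the uncoupling protein family, rose in 6 of 7 regions tested, by 0.85 in AMY to 1.69 in PFC, where the vehicle range was 0 to 12.4 CPM and the dexamethasone range 11.7 to 30.8 CPM. In dDG its difference was 0.59 ± 0.26 (adjusted p = 0.276). These were the only genes of the 18 carriers tested that passed, with 11 of 140 tests higher (7.86%) and 0 lower.

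Of 34 further assembly factors tested, 1 passed in any region. It was Cox10, which makes a precursor of the heme that complex IV needs, and it rose in PFC (0.38 ± 0.10), vCA1 (0.48 ± 0.12) and vDG (0.41 ± 0.11) of 8 regions, which is 1.19% of the list's 253 tests. In PFC its level went from 29.7 to 54.8 CPM in vehicle (median 47.2) to 47.2 to 77.6 CPM (median 57.8), so the ranges overlapped only in part. Of 18 genes of the citric acid cycle and pyruvate dehydrogenase, 1 passed, the NADP-dependent Idh2, higher in dDG (0.37 ± 0.10), vCA1 (0.48 ± 0.13) and vDG (0.44 ± 0.12), 2.17% of 138 tests. The shares of both lists lay below that of all genes. The vCA1 values stand beside the dentate and choroid plexus marker values there, whose part was not tested.

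Among 15 tested regulators of mitochondrial gene expression, the nuclear receptor genes Ppard and Ppara passed, in 5 of 104 tests (4.81%), a share within the range over all genes. Ppard rose in AMY, CER, PVN and vDG of 8 regions, most in CER (1.01 ± 0.14, from a median of 17.6 to 42.4 CPM). Ppara rose in vDG (1.27 ± 0.28), the 1 region where its counts were high enough for the test. For the kinases, phosphatases and fat oxidation genes that set fuel use, 9 of 97 tests were higher (9.28%) and 0 lower, 6 of them from Ucp2, which stands in both lists. The other 3 were 1 test each of kinases and a phosphatase of pyruvate dehydrogenase. Pdk4, a kinase that turns it off, rose in vDG (1.10 ± 0.25) and had a difference of 0.48 ± 0.24 in vCA1 (adjusted p = 0.328). Pdk2, another such kinase, rose in CER (0.39 ± 0.12), and Pdp1, a phosphatase that turns the enzyme on, rose in dDG (0.55 ± 0.14). None of 14 genes of mitochondrial DNA maintenance and expression (102 tests) and none of 9 antioxidant genes (68 tests) passed with edgeR.

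Between regions the members differed. In vehicle animals, the level differed among the 8 regions for 72 of 84 nuclear members and 5 of 7 mitochondrial members tested (edgeR F test with the animal as a block), against 73.3% of all genes. The shares called, 85.7% and 71.4%, lay near that background. Direction was uneven in CER. There, 62 of 84 nuclear members were higher than the mean of the other 7 regions and 0 were lower, where 24% of all genes were higher and 23.9% lower. Their median log2 difference was 0.28, against -0.01 for all genes.

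The CER calls were spread over the complexes. All 14 ATP synthase subunits tested were higher there (median 0.32), as were 21 of 28 accessory and 5 of 7 core subunits of complex I, 3 of 4 of complex II, 7 of 9 of complex III, 8 of 11 of complex IV, and Cycs and Cox7a2l. Of the 8 complex I assembly factors 2 were higher, a share near the background, and Atp5s was not called. The largest difference was in Ndufaf2, an assembly factor of complex I (ENSMUSG00000068184, chr13:108052590-108158625), at 0.91 ± 0.14 (adjusted p = 6.2e-09). In CER it ran from 16.6 to 39.3 CPM (median 27.6), and in dDG, where it was lower than elsewhere, from 3.81 to 18.0 CPM (median 11.1). Its CER level was above the mean of the same animal's other regions in 15 of 15 mice, and counts of mice for a region are given in this sense throughout. The next largest were the accessory subunits Ndufb8 (0.54 ± 0.05) and Ndufa11 (0.52 ± 0.08), Cox5a of complex IV (0.51 ± 0.07) and Uqcrh, the hinge protein of complex III (0.47 ± 0.06), of which Ndufb8 and Uqcrh lay above that mean in 15 of 15 mice. These 4, and other members named below without being in the naming rule, were picked after their values were seen.

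In CER 22 of the 84 nuclear members tested did not pass, and Cox6a2, Cox6b2 and Cox7a1 were not tested. Among the 22, Cox8a (-0.18 ± 0.09, adjusted p = 0.0779), Cox6a1 (-0.02 ± 0.06), Uqcr11 (-0.08) and Atp5s (-0.04) lay at or below 0. The CER excess was seen within batches. The median over nuclear members was positive within each of the 4 punching dates that gave a value (0.164 to 0.346) and within all 4 library plates (0.192 to 0.347). The other date, of 5 in all, held 1 vehicle animal and gave none. Markers of other cells moved with the region as well. All 6 oligodendrocyte markers were higher in CER (median 1.57, summed level 6918 to 15603 CPM against 1214 to 7519 CPM in PFC), 4 of 7 neuronal markers were higher and 2 lower, and 5 of 6 microglial markers were lower. Their part in the members' levels was not tested. The citric acid cycle list moved the same way, with 15 of 18 genes higher and 1 lower in CER (median 0.22), and so did the carriers (12 higher and 3 lower of 18) and the antioxidant genes (6 higher and 0 lower of 10). Of the 14 regulators tested 4 were higher and 2 lower, and of the 37 further assembly factors 11 were higher and 2 lower. Of the 12 genes of fuel use tested 5 were higher and 3 lower. Of 17 genes of mitochondrial DNA maintenance and expression 3 were higher and 0 lower. Over all genes 24% were higher in CER and 23.9% lower.

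**Figure D4:**
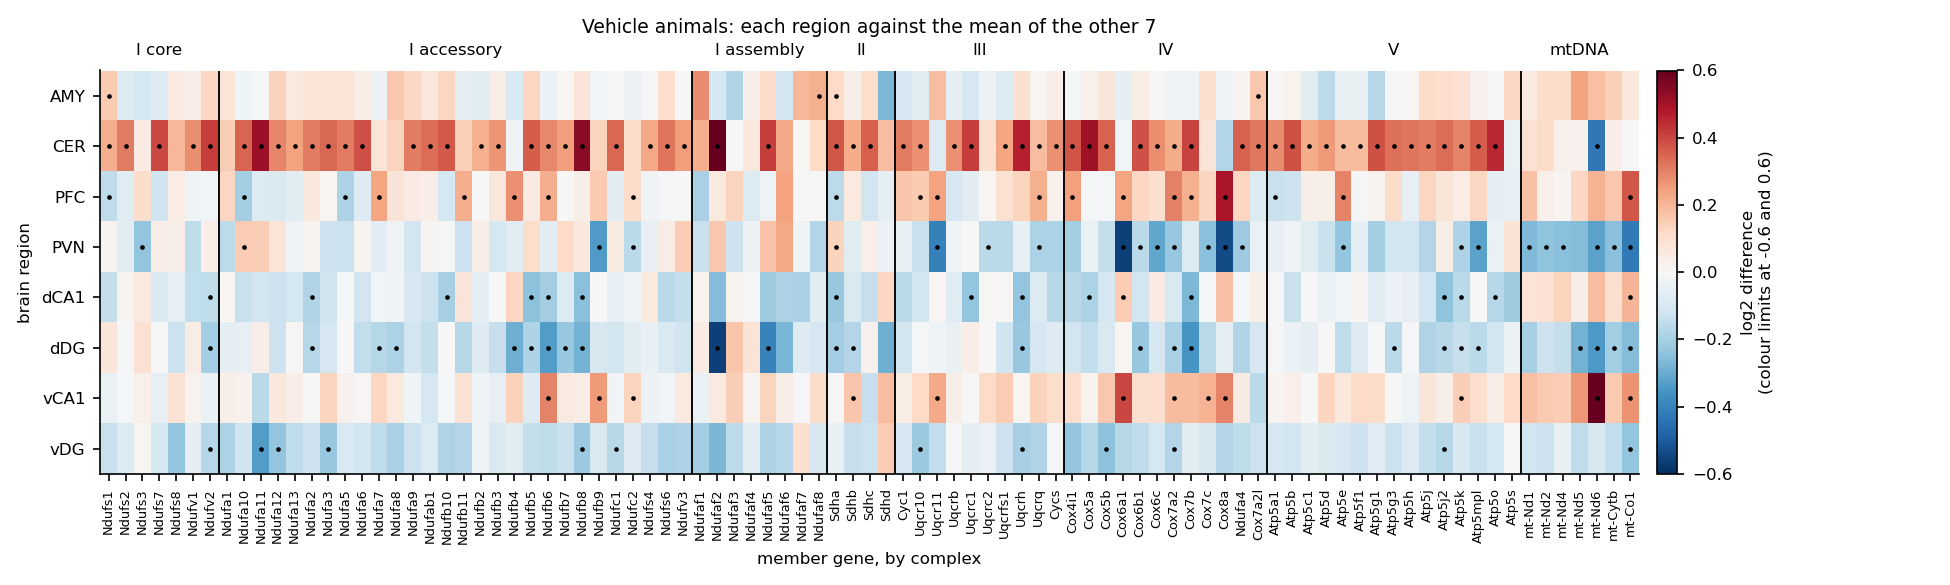
Log2 difference of each member in each region from the mean of the other 7 regions, in vehicle animals. Members are columns, ordered by complex with V for ATP synthase and mtDNA for the mitochondrial members. Red is higher and blue lower, colours stop at -0.6 and 0.6, and dots mark an adjusted p under 0.05. CER holds 62 dots in red among 84 nuclear members and 1 dot, for mt-Nd6 in blue, among the mitochondrial members.

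The mitochondrial members did not share the CER excess. Their differences there ran from -0.43 to 0.11 with a median of 0.03, and 0 of 7 were higher and 1 was lower. The lower one was mt-Nd6, the complex I subunit encoded on the other strand of mitochondrial DNA from the rest of the set (ENSMUSG00000064368, MT:13552-14070). Its level in CER ran from 125 to 265 CPM (median 181), against 168 to 569 CPM (median 302) in vCA1, where it was highest. The difference from the other regions was -0.43 ± 0.10 in CER (adjusted p = 0.000235), lower in all but 1 of 15 mice, and 0.62 ± 0.10 in vCA1 (adjusted p = 1.04e-07), higher in 13 of 14 mice. The 14 bases it shares with mt-Nd5 lie on opposite strands.

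PVN had the lowest mean mitochondrial share of the 8 regions in vehicle, 6.28% ± 1.18 (SD, n = 14). There 0 of 7 mitochondrial members were higher and 6 lower, where 20.2% of all genes were higher and 20.9% lower, and the median log2 difference was -0.26. The seventh, mt-Nd5, had a difference of -0.26 ± 0.11 (adjusted p = 0.051). For mt-Co1, whose end has an identical copy, the PVN libraries ran from 1872 to 3163 CPM (median 2711), below the PFC range of 3868 to 5118 CPM with no overlap. Its difference from the mean of the other regions was -0.42 ± 0.07 in PVN, lower in 14 of 14 mice, and 0.37 ± 0.06 in PFC, higher in 15 of 15. The PVN median was negative within each of the 4 punching dates that gave a value (-0.425 to -0.146) and every plate (-0.463 to -0.209). Markers of other cells were lower in PVN too. All 6 microglial markers (median -0.41, summed level 164 to 235 CPM against 216 to 331 CPM in PFC), all 4 blood markers tested (median -0.68) and both choroid plexus markers tested (median -2.27) were lower, as were 3 of 7 neuronal markers, of which 2 were higher. Their part in the mitochondrial and nuclear values of PVN was not tested.

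In dDG, 4 of 7 mitochondrial members were lower (mt-Co1, mt-Cytb, mt-Nd5 and mt-Nd6; median -0.21) and 0 higher, against 15.5% and 17.3% of all genes. The median was negative within each of the 4 dates that gave a value and every plate. Without the animal block, mt-Cytb and mt-Nd5 lost the call (edgeR adjusted p = 0.0536 and 0.0522). In vCA1, 2 of 7 were higher (mt-Co1 and mt-Nd6; background 12.4%). Single calls were made for mt-Co1, higher in PFC (19.6%) and dCA1 (20%) and lower in vDG (3.78%). In AMY 0 of 7 were higher and 0 lower, with differences of 0.06 to 0.24.

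Mitochondrial values also moved with depth. In 15 of 16 groups of a region and an arm, the median mitochondrial share of the libraries below the group's median total was higher than that of the libraries above it. The gap was widest in vCA1 vehicle libraries, at a median of 9.37% below against 6.09% above. In 16 of 16 groups the median nuclear share went the other way and was lower below the median total. When the log2 library total was added to the fit, a choice made after seeing the data, 7 of 7 mitochondrial members were higher in PFC and in vCA1 and 7 of 7 lower in PVN and in dDG, and 3 were lower in vDG. In the same fit 64 of 84 nuclear members were higher in CER.

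**Figure D5:**
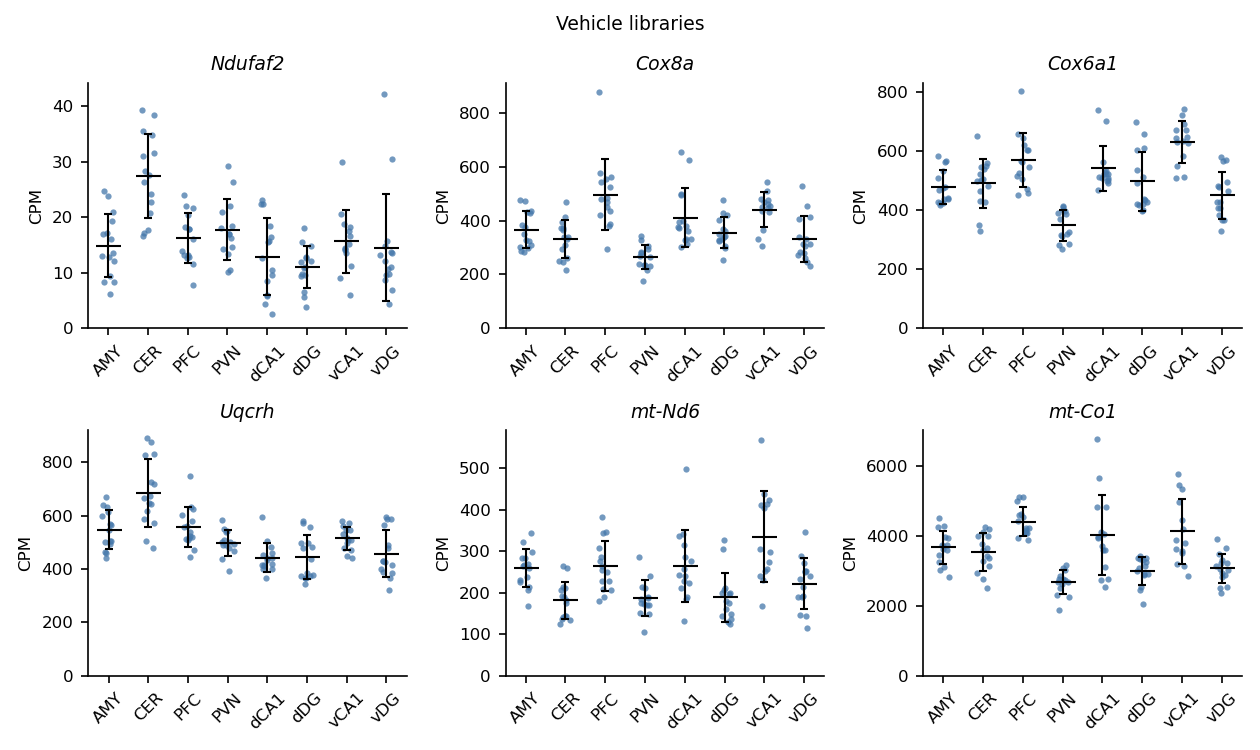
Level in CPM of 4 nuclear and 2 mitochondrial members in each vehicle library, by region. Points are libraries of 14 or 15 mice a region, and bars are the mean and SD. Ndufaf2 and Uqcrh are highest in CER, Cox8a and Cox6a1 are lowest in PVN, and the mt-Co1 ranges of PVN and PFC do not overlap.

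In PVN, 2 of 84 nuclear members were higher and 16 lower, where 20.2% and 20.9% of all genes were, so the share of lower members was near the background. Of those 16, 7 were among the 11 complex IV subunits tested. Of complex I, 1 of 7 core and 2 of 28 accessory subunits were lower there. Cox6a1, the common form of subunit 6a (ENSMUSG00000041697, chr5:115345642-115348981), ran from 268 to 416 CPM in PVN (median 347) and from 510 to 743 CPM in vCA1 (median 640), with no overlap. Its differences were -0.56 ± 0.07 in PVN (adjusted p = 9.6e-12, lower in 14 of 14 mice) and 0.40 ± 0.06 in vCA1 (higher in 14 of 14 mice).

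Cox8a, the common form of the smallest subunit of complex IV (ENSMUSG00000035885, chr19:7215158-7217616), ran from 176 to 342 CPM in PVN (median 266) and from 296 to 876 CPM in PFC (median 481), and just 1 PFC library, the lowest, lay below the highest PVN library. It was lower in PVN by -0.54 ± 0.09, in 14 of 14 mice, and higher in PFC by 0.49 ± 0.08 and in vCA1 by 0.30 ± 0.08. Cox6c fell on the same side in PVN (-0.31 ± 0.05, lower in 14 of 14 mice), as did Cox7a2 (-0.23 ± 0.06) and Ndufa4 (-0.21 ± 0.08), a complex IV subunit despite its name, whose call was lost with the RNA integrity number as a covariate (edgeR adjusted p = 0.0547). The 2 nuclear members higher in PVN were Sdha, the flavoprotein subunit of complex II (0.13 ± 0.05), and Ndufa10 (0.15 ± 0.06).

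In PFC, 14 of 84 nuclear members were higher and 5 lower (19.6% and 20% of all genes). The 14 included Cox8a, Cox7a2 (0.30 ± 0.06), Atp5e (0.30 ± 0.07), the epsilon subunit of ATP synthase, Cox4i1 (0.25 ± 0.08) and Cox6a1 (0.24 ± 0.06). The 5 lower members were Sdha (-0.16 ± 0.05), Atp5a1 (-0.13), Ndufs1 and Ndufa10 (-0.20 ± 0.06), and Ndufa5. Oligodendrocyte markers moved with the region, 6 of 6 being lower in PFC (median -1.38, summed level 1214 to 7519 CPM against 3802 to 6892 CPM in PVN), and 4 of 7 neuronal markers were higher and 0 lower (median 0.27). Their part in the PFC values was not tested. PFC also had the highest RNA integrity number, 7.75 ± 0.498 (SD, n = 15), against group means of 5.91 to 6.69 in the other vehicle regions. With that number as a covariate, 3 nuclear members were higher in PFC instead of 14, the call of Cox7a2 was lost (edgeR adjusted p = 0.0518), and 3 mitochondrial members instead of 1. Within punching dates the median of the nuclear members in PFC was positive in 2 of the 4 that gave a value.

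In dDG, dCA1 and vDG more nuclear members were lower than higher. In dDG 0 were higher and 21 lower (17.3% and 15.5% of all genes), among them Ndufb8 (-0.29 ± 0.06), Ndufb6 (-0.34 ± 0.07), Cox7b (-0.35 ± 0.08), Sdha (-0.21 ± 0.05) and Ndufaf2 (-0.56 ± 0.16). In dCA1 1 was higher, Cox6a1, and 14 lower (20% and 19.1%). Cox6a1 lost this call with DESeq2 size factors, without the count filter and with scaling that leaves out mitochondrial genes (adjusted p = 0.0541, 0.087 and 0.0541 in edgeR). In vDG 0 were higher and 11 lower (6.82% and 3.78%). In vCA1 10 were higher and 0 lower (12.4% and 7.33%), 4 of them complex IV subunits, and the 10 became 6 under 4 alternatives, such as leaving out the animal block. In AMY 4 were higher and 0 lower (13.1% and 12%), namely Cox7a2l, Ndufaf8, Ndufs1 and Sdha, and none without the count filter. These shares lie near or below the backgrounds, except the lower calls in dDG and vDG. For those, the median of the nuclear members was negative within each of the 4 punching dates that gave a value, but within plates in 3 of 4: it was 0.05 in dDG on plate 4 (57 of 87 members above 0) and 0.02 in vDG on plate 2 (48 of 87). All 7 dentate markers were higher than in the mean of the other regions in both dCA1 (median log2 difference 1.99) and dDG (1.81), so these markers do not set the libraries labelled dCA1 apart from those labelled dDG. Values for either region therefore hold for the libraries so labelled. Oligodendrocyte markers were lower in dCA1 (6 of 6, median -0.82) and dDG (3 of 6, median -0.36), and 3 of 7 neuronal markers were lower in dDG and 3 of 7 higher in vCA1. In vDG 4 of 7 dentate markers (median 0.82), 3 of 4 blood markers (0.55) and 2 of 7 astrocyte markers (0.13) were higher. Of the neuronal markers 1 of 7 was lower in vDG. The part of all these cells, and of choroid plexus in the dDG punches, was not tested.

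Members differed widely in how much they varied by region. The range of the region means on a log2(CPM + 1) scale was largest for Cox6a2 (2.43), Cox7a1 (1.82), Cox6b2 (1.37), Ndufaf2 (1.27) and Cox8a (0.89). It was smallest for Ndufaf4 (0.14), Uqcrc2 (0.22) and Atp5s (0.23). Ndufaf4, an assembly factor of complex I, kept medians between 79.3 and 96.9 CPM in all regions, and Uqcrc2, a core protein of complex III, between 239 and 283 CPM. Of the flattest 3, Uqcrc2 passed in 1 region, PVN (-0.16 ± 0.06, lost with the RNA integrity number as a covariate), and the other 2 in none. CER held the highest mean of 60 of the 87 nuclear members, and the lowest mean fell in dDG for 22, vDG for 20, PVN for 18 and dCA1 for 17.

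Several complex IV subunits have tissue-specific forms, and the brain punches held mainly the common ones. Per kb of exon, Cox6a1 averaged 695 CPM and Cox6a2, its heart and muscle form, 8.17 CPM. Cox7a2 averaged 426 CPM per kb and its muscle form Cox7a1 13.4 CPM per kb. The partners Cox4i2 (1.52 CPM per kb, against 211 for Cox4i1), Cox8b (1.85, against 667 for Cox8a) and Ndufa4l2 (0.771, against 100.3 for Ndufa4) lay below the level of members. Ratios per kb are a rough guide in libraries that count transcript ends.

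The low forms had regional patterns of their own, described without a test because too few of their libraries reached the count filter. Cox6a2 was listed at 0 in the median CER library (0 to 3.8 CPM) and had medians of 9.34 CPM in PVN (1.3 to 33.2) and 7.67 CPM in vCA1 (2.9 to 13.4). Of its 680 exon bases 70 lie under exons of Itgad on the other strand, and without a stated strand setting reads of the pair cannot be told apart. Cox7a1 had a median of 12.1 CPM in CER (1.95 to 27.5) and of 3.51 CPM in vCA1 (0 to 11.6), with overlapping ranges. Cox6b2, a testis form of subunit 6b, had medians from 2.62 CPM in PFC to 7.39 CPM in vDG.

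Promoters of the nuclear members were searched for motifs, which the member rule did not use. A promoter of 300 bases, 250 before and 50 after the start, was found by symbol for 70 of the 87 nuclear members in the RefSeq table (GRCm38.p6). The core motif of NRF1, a factor known for respiratory chain genes, is GCGCA followed at once by TGCGC, so it reads the same on both strands. It occurred in 6 of 70 (8.57%), against 1.07% of 27025 promoters. CCGGAAG, a motif of ETS factors such as GABPA, occurred on either strand in 17 (24.3%, against 9.93%), and AAGATGGC, a YY1 motif, in 10 (14.3%, against 3.19%). TATAAA occurred in 4 (5.71%, against 15.7%). The palindrome of the glucocorticoid receptor, AGAACA and TGTTCT with any 3 bases between them, occurred in 0 of 70 and in 3 of all promoters (0.0111%). No motif stood in most of the promoters, and these are matches of letters only.

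The NRF1 motif stood in Atp5k, Cox6a1, Ndufa11, Ndufaf4, Ndufaf5 and Uqcrc1, whose regional patterns were unlike. Ndufa11, Ndufaf5, Uqcrc1 and Atp5k were higher in CER (0.52, 0.41, 0.42 and 0.30), whereas Cox6a1 (-0.02) and Ndufaf4 (0.06) did not pass there. The promoters of Cox6a1 and Ndufa11 are shown as a pair with the motif and different patterns. Each is written 5′ to 3′ on the gene's strand. Capitals mark the NRF1 motif and, in Cox6a1, CTTCCGG, which is CCGGAAG on the other strand. The 2 motifs do not overlap.
Cox6a1, chr5:115348909-115349208, minus strand: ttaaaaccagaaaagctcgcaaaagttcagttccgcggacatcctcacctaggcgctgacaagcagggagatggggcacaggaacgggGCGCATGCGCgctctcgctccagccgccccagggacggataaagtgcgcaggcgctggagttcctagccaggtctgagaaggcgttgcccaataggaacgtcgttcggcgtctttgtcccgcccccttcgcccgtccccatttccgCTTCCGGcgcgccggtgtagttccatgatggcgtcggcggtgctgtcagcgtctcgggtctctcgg
Ndufa11, chr17:56717512-56717811, plus strand: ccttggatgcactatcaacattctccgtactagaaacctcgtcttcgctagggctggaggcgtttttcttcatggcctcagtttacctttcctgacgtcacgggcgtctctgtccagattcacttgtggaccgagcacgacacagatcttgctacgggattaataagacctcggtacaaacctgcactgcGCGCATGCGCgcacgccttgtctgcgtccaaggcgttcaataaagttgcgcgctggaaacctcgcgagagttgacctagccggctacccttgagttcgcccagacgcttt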

How the data were processed

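The authors deposited raw counts for 27998 genes in 235 libraries, and per-region log2 values after variance stabilisation for 228 of them, used here only to see which 7 libraries they leave out. The submitters' processing notes name mm10, cutadapt, UMI-tools 0.5.4, STAR 2.6.0a, featureCounts 1.6.4 and DESeq2 1.30.1. The strand setting and the handling of reads with several positions are not given in the sources used here. Symbols came from GENCODE M21 and matched 27645 genes.

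Counts were tested with edgeR 4.0.16 (filterByExpr by group, TMM scaling, glmQLFit and glmQLFTest), per region for dexamethasone and over all vehicle libraries, with the animal as a block, for regions. The Benjamini-Hochberg adjustment covered all genes tested in a comparison. Standard errors are the log2 difference over the square root of F. For some members with low counts, such as Atp5s in vDG and Ndufaf6 in AMY, the reported p is larger than this standard error implies. Their intervals are therefore somewhat too narrow. The tests were tried on simulated counts. DESeq2 1.42.0 was an alternative. Counting noise, the spread between libraries and the number of animals all enter the precision, and intervals cover the fitted spread. The mean CPM of the member rule and the values per kb of exon use all counts of a library. Other CPM levels use the counts of the genes kept by the filter, with TMM scaling over all libraries. Arms used different animals, but the labels give vehicle and dexamethasone libraries of the same number in a region the same plate in 115 of 115 pairs and the same punching date in 109, all but those of number 4, so the number was taken as pairing by batch. The deviations of such pairs correlated weakly (median 0.0389 to 0.156 by region). Under the naming rule stand all mitochondrial members, those with the widest and narrowest regional ranges, isoform pairs, the smallest interaction p-values and list genes past the threshold. Members, lists and rules were chosen with earlier results of these data known.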

Additional observations from a re-analysis of the deposited data

How the results depend on the processing

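In 363 of 386 recomputed values the counts and shares of members stayed within 1.5 times or 1 SD of the values given, and 23 did not. Of the calls for single named genes, 203 alternatives kept the direction and the call, 13 lost the call and 0 changed direction. Of the 13, 5 were Cox7a2 in vDG and 3 were Cox6a1 in dCA1. Cox7a2 in vDG lost the call without the animal block, with DESeq2 size factors, with RIN and without the filter. It also lost it with scaling that leaves out mitochondrial genes. With RIN as a covariate, Cox7a2 in PFC and Ndufa4 and Uqcrc2 in PVN lost theirs. Without the animal block, mt-Cytb and mt-Nd5 in dDG did. For dexamethasone, the replicate block gave 1 nuclear call in PVN, and leaving out the libraries absent from the variance-stabilised tables gave 1 in vCA1. In the dexamethasone fits the replicate block pairs libraries by plate and, for all but number 4, by punching date. It changed no other count of members for dexamethasone.

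For regional levels in vehicle, the count of nuclear members higher became 0 in AMY without the filter on low counts, 3 in PFC with RIN as a covariate, 4 in PVN with RIN and 1 without the filter, and 1 in vDG without the filter. In dCA1 it became 2 with the library total as a covariate and 0 with DESeq2 size factors, without the filter and with scaling that leaves out mitochondrial genes. In vCA1 it became 6 without the animal block, with DESeq2 size factors, with RIN and without the filter. The count lower became 1 in CER without the filter and 1 in vCA1 with DESeq2 size factors. For mitochondrial members, the library total gave 7 higher in PFC, 7 higher in vCA1, 7 lower in dDG and 3 lower in vDG. RIN gave 3 higher in PFC, and leaving out the animal block gave 2 lower in dDG. The cause was not tested. Low counts limit Cox6a2, Cox6b2 and Cox7a1, and the reason why 7 libraries are absent from the authors' log2 tables is not given in the sources used here.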
